A study of Homo sapiens with 12 samples.

Results

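The NF-kB pathway and cytokine genes described here are 10: the 4 Rel subunits NFKB1, NFKB2, RELA and RELB, the inhibitors NFKBIA and TNFAIP3, the survival factor BIRC3, and the secreted factors CXCL8, IL32 and LIF. They were chosen by gene symbol, taking all probes that the platform's probe annotation pairs with one of these names. Of the 10 genes, 9 had a named probe, with 13 probes between them among 47323 on the array. Probes entered the tests when their detection p, the authors' measure against the negative controls of the array, was under 0.05 on at least 3 of 12 arrays, which left 11 of the 13 probes and all 9 genes among the 11785 genes tested. The expression of BIRC3, which encodes the ubiquitin ligase cIAP2, was not analysed here, and this gene enters only the counts of promoter windows.

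RNA of HCT116 cells, an established line from a human colorectal carcinoma, was read on bead arrays (Illumina HumanHT-12 v4), 3 arrays per group that the design text calls biological replicates. Wip1SH+ATMi cells carried a short hairpin RNA against Wip1, the phosphatase encoded by PPM1D, and received an inhibitor of the kinase ATM at 10 µM for 3 days, renewed daily. Wip1SH cells carried the hairpin without the inhibitor. WT+ATMi cells were HCT116 labelled WT with the same inhibitor treatment, and WT cells bore that label without the inhibitor. All groups grew in DMEM with fetal calf serum. No control hairpin is named for any group and no vehicle is named for the cells without the inhibitor. Effects of carrying any hairpin, of the solvent and of the daily renewal therefore cannot be told apart from those of the named factors. The labels do not say whether the hairpin cells were a pool or 1 clone, or whether the WT cells carried a control vector.

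NF-kB is a family of dimeric transcription factors held in the cytoplasm by inhibitor proteins. Cytokine receptors and other sensors activate the IKK kinases, which mark the inhibitor IκBα for destruction so that dimers of p50 and RELA enter the nucleus, while a slower, non-canonical branch matures the NFKB2 precursor into p52, the partner of RELB. Many targets are chemokines, cytokines and the pathway's own inhibitors, which close a feedback loop. ATM carries a signal from DNA double-strand breaks to the IKK complex through IKKγ, and Wip1 has been described as a phosphatase of RELA.

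Upstream windows of 3 members are shown because the results turn on these members: NFKBIA moved with the inhibitor, CXCL8 with both factors and IL32 with depletion. Each is the 250 bases before the gene's start in RefSeq on GRCh38.p14, read 5′ to 3′ on the gene's strand, at chr14:35404750-35404999 (minus strand) for NFKBIA, chr4:73740319-73740568 (plus strand) for CXCL8 and chr16:3065153-3065402 (plus strand) for IL32, the last being 1 of 2 windows of that gene. Capitals mark GGNNNTTCC on either strand, a shortened form of the kappaB site that was chosen after the sequences had been seen.
NFKBIA: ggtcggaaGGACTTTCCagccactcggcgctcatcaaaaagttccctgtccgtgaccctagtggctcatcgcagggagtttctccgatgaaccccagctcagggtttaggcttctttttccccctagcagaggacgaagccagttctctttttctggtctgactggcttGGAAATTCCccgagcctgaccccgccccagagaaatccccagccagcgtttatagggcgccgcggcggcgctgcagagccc
CXCL8: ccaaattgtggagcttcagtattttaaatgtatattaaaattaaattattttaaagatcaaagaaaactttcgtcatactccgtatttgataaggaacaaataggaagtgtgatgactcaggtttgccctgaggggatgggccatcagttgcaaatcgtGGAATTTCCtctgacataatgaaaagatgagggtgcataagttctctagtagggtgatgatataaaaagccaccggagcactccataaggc
IL32: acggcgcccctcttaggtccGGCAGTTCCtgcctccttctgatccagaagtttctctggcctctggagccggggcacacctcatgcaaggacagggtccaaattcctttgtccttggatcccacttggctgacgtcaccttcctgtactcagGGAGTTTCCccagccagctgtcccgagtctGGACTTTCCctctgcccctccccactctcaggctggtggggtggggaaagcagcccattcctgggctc
The NFKBIA window holds 2 such stretches, the CXCL8 window 1 and the IL32 window 3. The other IL32 window, which is not shown, holds none upstream of its start. Of the 10 members, 8 have a window in the table, and some have several starts, which makes 13 windows in all. GGNNNTTCC was found upstream of the start in 8 of these 13 windows, from 7 genes, against 17.1% of all 35116 windows. The longer kappaB consensus, GGGRNNYYCC (R for A or G, Y for C or T), has matches that can overlap the shorter form. It was found in 7 of the 13, from 6 genes, against 9.96% of all windows. Of the 3 windows shown, that of CXCL8 held no match to it. TGANTCA, the AP-1 site, was found in 1 of the 13, that of CXCL8, against 6.57% of all windows. A match describes the letters and is not a measured binding site, and RELB and LIF have no window in the table.

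Array brightness went with the groups. Mean signals of single arrays were 649 to 746 in Wip1SH+ATMi, 542 to 653 in Wip1SH, 657 to 720 in WT+ATMi and 513 to 535 in WT, and the number of detected probes was 19505 to 20408, 18568 to 18961, 18723 to 19654 and 17650 to 17929 in the same groups. After normalization, arrays correlated at 0.991 to 0.995 within groups and at 0.976 to 0.988 between groups across the genes tested. PPM1D, against which the hairpin is directed, gave a log2 fold change of -1.66 ± 0.10 (SE) for Wip1SH against WT and of -1.85 ± 0.10 for Wip1SH+ATMi against WT+ATMi, with limma adjusted p-values of 2.57e-06 and 6.37e-07. Of 10 colon epithelium markers, EPCAM, CDH1, KRT8, KRT18, KRT19 and CDX2 were detected on all 12 arrays, while VIL1, CDX1 and LGALS4 were detected on none. The summed intensity of the 10 was 55072 to 60980 in Wip1SH+ATMi, 72387 to 75592 in Wip1SH, 67480 to 69557 in WT+ATMi and 73038 to 75830 in WT, so that it was lowest with both factors. This linear sum weighs the brightest markers most, and the markers did not move alike. In WT, KRT8 averaged 14.12 (13.07 to 14.14 over all arrays), KRT18 9.85 (8.54 to 9.90) and KRT19 14.79 (13.98 to 14.90), near their highest. EPCAM averaged 13.63 (13.58 to 14.08), CDH1 9.92 (9.86 to 10.30) and CDX2 9.17 (9.07 to 9.65), near their lowest. CLDN4 lay between, at 6.04 (5.47 to 6.58). The leukocyte markers PTPRC and CD3E were detected on no array, and CD14 and ITGAM on 3 each. All 4 endothelial markers were detected on no array. Of 6 fibroblast markers, COL1A1 was detected on all 12 arrays, DCN on 3, COL1A2 on 1 and the other 3 on none, and their sum was 419 to 470 in Wip1SH+ATMi, 384 to 398 in Wip1SH, 420 to 435 in WT+ATMi and 435 to 456 in WT. The summed intensity of the 5 leukocyte markers with a probe nevertheless moved with the groups, at 1719 to 1896 in Wip1SH+ATMi, 2199 to 2384 in Wip1SH, 1363 to 1634 in WT+ATMi and 1258 to 1494 in WT. CD68, a lysosomal protein of macrophages that other cells also make, was the only one of the 5 detected on all 12 arrays. The part of array brightness and of these markers in the results below was not tested beyond the alternative settings named there. In RNA from whole cultures, fewer cells with a transcript and less of it per cell cannot be told apart.

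**Figure D1:**
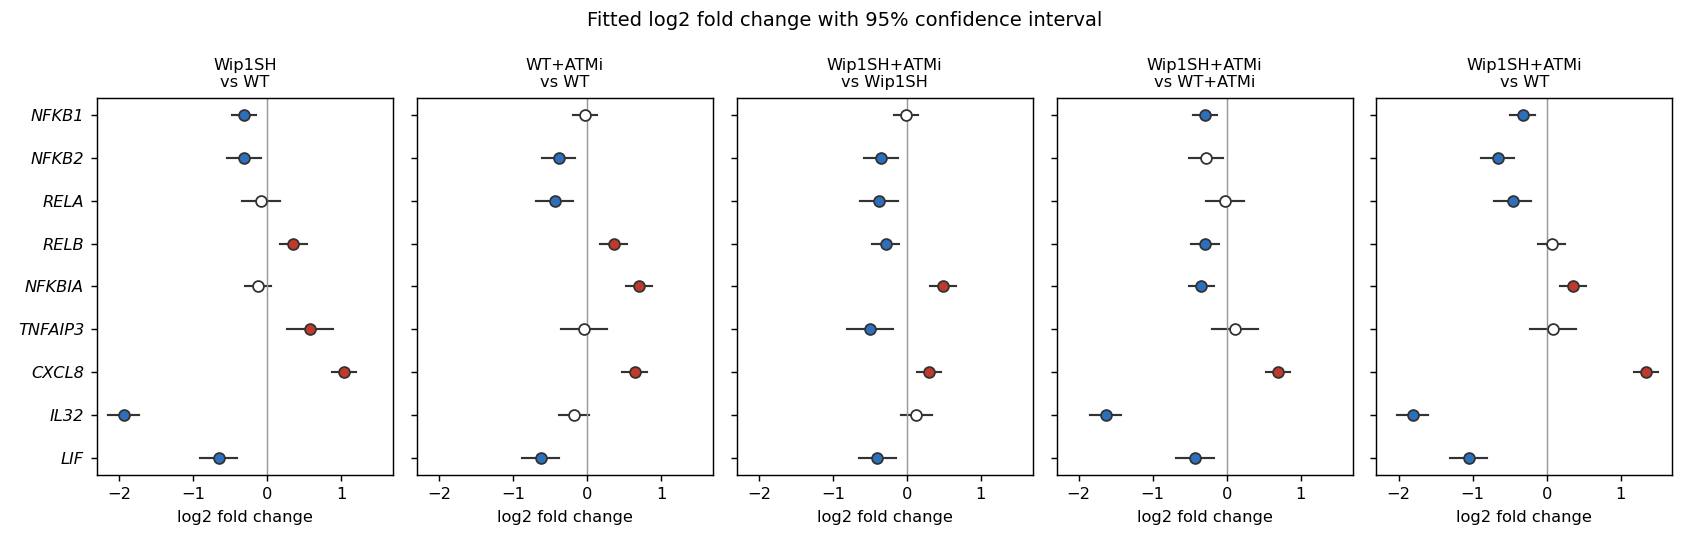
Fitted log2 fold changes of the 9 members (points) with 95% confidence intervals (lines) in 5 comparisons, 3 arrays per group. Red points passed as higher and blue points as lower in the first-named group at a limma adjusted p under 0.05, open points did not pass, and CXCL8 lies right of 0 in all 5 panels; the IL32 points on the left are fitted values for groups without detection, not bounds.

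CXCL8 rose with each factor, IL32 fell below detection with depletion, LIF fell with each factor, and NFKBIA rose with the inhibitor. Changes of the Rel subunits were at most 0.66 on the log2 scale in any comparison. In Wip1SH against WT, 3 of the 9 members passed as higher and 4 as lower at a limma adjusted p under 0.05 (Benjamini-Hochberg over 11785 genes), while 16.8% of all genes passed as higher and 15.4% as lower, or 32.2% together. WT+ATMi against WT gave 3 higher and 3 lower members, beside 15.4% and 10% of all genes, or 25.5% together. Wip1SH+ATMi against Wip1SH gave 2 higher and 5 lower members, beside 14.3% and 9.02% of all genes, or 23.3% together. Wip1SH+ATMi against WT+ATMi gave 1 higher member, CXCL8, and 5 lower ones, beside 10.5% and 10.7% of all genes, or 21.2% together. Wip1SH+ATMi against WT gave 2 higher members, NFKBIA and CXCL8, and 5 lower ones, beside 23.5% and 17.1% of all genes, or 40.7% together. The groups did not overlap for 7 of the 9 members in each of the 5 comparisons, where 44.9%, 41.6%, 40.8%, 39.6% and 49.5% of all genes did not overlap, in the order just given. The members' median log2 fold changes were -0.12, -0.04, -0.29, -0.29 and -0.33, beside 0.01, 0.03, 0.02, 0.01 and 0.04 over all genes. These comparisons share arrays with each other and are not independent. The members were chosen with earlier results of these data known, so their counts cannot be weighed against the shares of all genes.

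Calls depended on whether the number of detected probes entered the fit. With a covariate for how many probes each array detected, a number that differed between the groups, 0 of the 9 members passed in WT+ATMi against WT and 0 in Wip1SH+ATMi against Wip1SH, where 33 and 159 of all genes passed. In both comparisons the numbers of detected probes did not overlap between the groups. This fit therefore cannot tell the covariate and the inhibitor apart, and a call lost in it does not assign the difference to either. Sizes did not all shrink: in WT+ATMi against WT the log2 fold changes became 0.75 for CXCL8, 0.39 for RELB and 0.68 for NFKBIA, close to or above those without the covariate, but -0.13 for RELA, -0.22 for NFKB2 and -0.30 for LIF. The same covariate left 2 members, CXCL8 and IL32, in Wip1SH against WT, in Wip1SH+ATMi against WT+ATMi and in Wip1SH+ATMi against WT. Scaling the arrays to equal medians over all probes instead moved the median log2 fold change of all genes by 0.23, 0.39, 0.13, -0.02 and 0.36 in the 5 comparisons, in the order of the counts above. It left 3 members higher and 1 lower in Wip1SH against WT, 4 and 0 in WT+ATMi against WT, 2 and 1 in Wip1SH+ATMi against Wip1SH, 1 and 2 in Wip1SH+ATMi against WT+ATMi, and 3 and 2 in Wip1SH+ATMi against WT. Lower calls of the Rel subunits rest on this choice, as given with each gene.

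**Figure D2:**
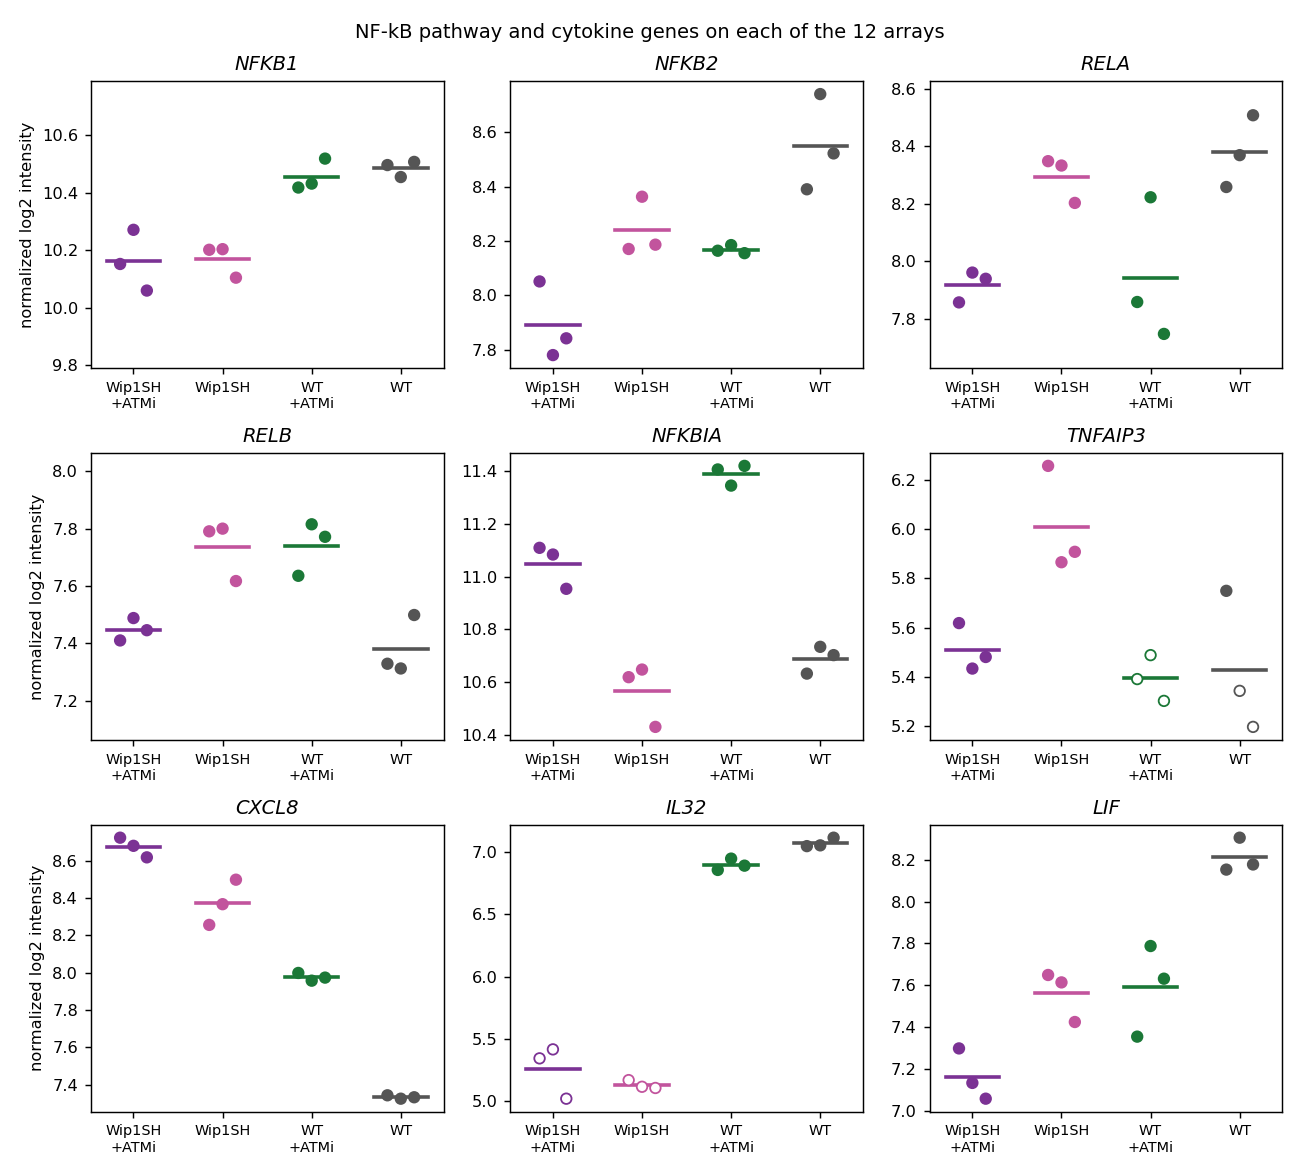
Normalized log2 intensity (vertical axis) of the 9 members on each of the 12 arrays, by group (filled points had a detection p under 0.05, open points did not, and horizontal lines are group means). IL32 is open on all 6 arrays of the hairpin cells, and RELB is high in the 2 groups with a single factor.

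Among the Rel subunits, NFKB1 was lower in the hairpin cells under quantile normalization. NFKB1 encodes p105, which is processed to the DNA-binding subunit p50. Its log2 intensity was 10.15, 10.27 and 10.06 on the Wip1SH+ATMi arrays, 10.20, 10.20 and 10.10 in Wip1SH, 10.42, 10.43 and 10.52 in WT+ATMi, and 10.50, 10.46 and 10.51 in WT. All 6 hairpin arrays lay below all 6 arrays without the hairpin, and within each pair of groups the inhibitor made no separation. NFKB1 was lower in Wip1SH cells than in WT cells (-0.32 ± 0.07, adjusted p = 0.00815) and in Wip1SH+ATMi cells than in WT+ATMi cells (-0.30 ± 0.07, adjusted p = 0.0158). Equal medians over all probes ended both calls, at -0.04 (adjusted p = 0.848) and -0.32 (adjusted p = 0.112). The second call was lost without WT+ATMi replicate 3 or Wip1SH+ATMi replicate 3 (log2 fold change -0.26 and -0.24, adjusted p = 0.0621 and 0.0625). NFKB1 was also lower in Wip1SH+ATMi cells than in WT cells (-0.33 ± 0.07, adjusted p = 0.00476), a direction that turned to 0.12 when arrays were scaled to equal medians over all probes. For the inhibitor the interval of the NFKB1 difference was -0.17 to 0.15 in hairpin cells and -0.19 to 0.13 in WT cells, the second difference turning to 0.44 (adjusted p = 0.00607) with equal medians over all probes. Before normalization the mean NFKB1 signal was 1371 in Wip1SH+ATMi, 1209 in Wip1SH, 1666 in WT+ATMi and 1175 in WT, so that the raw intensity was lowest in WT, where the normalized value was highest.

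NFKB2 encodes p100, the precursor of p52 in the non-canonical branch. The brighter of its kept probes gave 8.05, 7.78 and 7.84 in Wip1SH+ATMi, 8.17, 8.36 and 8.19 in Wip1SH, 8.16, 8.19 and 8.16 in WT+ATMi, and 8.39, 8.74 and 8.52 in WT. WT was highest and Wip1SH+ATMi lowest, while the single-factor groups overlapped each other between them. The largest difference was Wip1SH+ATMi against WT, at -0.66 ± 0.10 (adjusted p = 0.000453). The brighter probe was also lower in Wip1SH cells than in WT cells (-0.31 ± 0.10, adjusted p = 0.0382), in WT+ATMi cells than in WT cells (-0.38 ± 0.10, adjusted p = 0.0187, but 0.11 with equal medians over all probes) and in Wip1SH+ATMi cells than in Wip1SH cells (-0.35 ± 0.10, adjusted p = 0.0306). With equal medians over all probes none of the 4 passed, at -0.20 (adjusted p = 0.222) for Wip1SH+ATMi against WT, -0.0028 (0.99) for Wip1SH against WT and -0.20 (0.334) for Wip1SH+ATMi against Wip1SH. Each of the last 3 calls was also lost without single arrays. That of Wip1SH against WT was lost without WT replicate 2 or 3, WT+ATMi replicate 1 or 3, or Wip1SH replicate 1 or 3 (adjusted p = 0.0501 to 0.139), that of WT+ATMi against WT without WT replicate 2 or WT+ATMi replicate 1 or 3 (0.0524 to 0.0683), and that of Wip1SH+ATMi against Wip1SH without replicate 2 or 3 of either group (0.0532 to 0.11). Wip1SH+ATMi against WT+ATMi did not pass (-0.28 ± 0.10, adjusted p = 0.0781) and passed without Wip1SH+ATMi replicate 1 (-0.36, adjusted p = 0.0468).

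The dimmer NFKB2 probe gave 7.67, 7.87 and 7.79 in Wip1SH+ATMi, 8.13, 8.11 and 8.15 in Wip1SH, 7.92, 8.11 and 8.03 in WT+ATMi, and 8.29, 8.05 and 8.23 in WT. On this probe Wip1SH+ATMi again lay below every other group, and the other 3 groups were closer together. It passed for Wip1SH+ATMi against Wip1SH (-0.35 ± 0.09, adjusted p = 0.016 in a fit over 15772 probes) and against WT (-0.41 ± 0.09, adjusted p = 0.00348). It did not pass for Wip1SH against WT (-0.06) or WT+ATMi against WT (-0.17), and the remaining NFKB2 probe was detected on no array.

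RELA, the p65 subunit that carries most of the transactivating activity of canonical NF-kB, was lower with the inhibitor under quantile normalization. Its values were 7.86, 7.96 and 7.94 in Wip1SH+ATMi, 8.35, 8.33 and 8.20 in Wip1SH, 7.86, 8.22 and 7.75 in WT+ATMi, and 8.26, 8.37 and 8.51 in WT. Inhibitor arrays lay below the arrays of the same cells without it, with 1 WT+ATMi array at 8.22 close to the untreated cells. RELA was lower in WT+ATMi cells than in WT cells (-0.44 ± 0.12, adjusted p = 0.0174, but 0.046 with equal medians over all probes) and in Wip1SH+ATMi cells than in Wip1SH cells (-0.38 ± 0.12, adjusted p = 0.0358, but -0.23, adjusted p = 0.212, with that scaling). The first of these calls was lost without WT replicate 3 or WT+ATMi replicate 1 or 3 (adjusted p = 0.0605 to 0.0727), and the second without Wip1SH replicate 1 or 2 or any Wip1SH+ATMi replicate (0.0671 to 0.101). Depletion left RELA without a call, with an interval of -0.34 to 0.17 for Wip1SH against WT and -0.28 to 0.23 for Wip1SH+ATMi against WT+ATMi. With both factors RELA was lower than in WT cells (-0.46 ± 0.12, limma adjusted p = 0.00781, but -0.008 with equal medians over all probes). Before normalization the mean RELA signal was 354 in Wip1SH+ATMi, 389 in Wip1SH, 356 in WT+ATMi and 331 in WT. The raw intensity was thus lowest in WT, where the normalized value was highest.

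RELB, the p52 partner, rose with either factor alone and was near its WT level with both. It was 7.41, 7.49 and 7.45 in Wip1SH+ATMi, 7.79, 7.80 and 7.62 in Wip1SH, 7.64, 7.81 and 7.77 in WT+ATMi, and 7.33, 7.31 and 7.50 in WT. The 2 single-factor groups overlapped each other and lay above the other 2 groups, which also overlapped each other. RELB was 1.28-fold higher in Wip1SH cells than in WT cells (0.36 ± 0.08, adjusted p = 0.00827) and 1.28-fold higher in WT+ATMi cells than in WT cells (0.36 ± 0.08, adjusted p = 0.00966). It was 1.22-fold lower in Wip1SH+ATMi cells than in Wip1SH cells (-0.29 ± 0.08, adjusted p = 0.0291) and 1.22-fold lower in Wip1SH+ATMi cells than in WT+ATMi cells (-0.29 ± 0.08, adjusted p = 0.0286). Without Wip1SH replicate 1 or 2 or Wip1SH+ATMi replicate 1 or 3 the call against Wip1SH was lost (adjusted p = 0.0672 to 0.0959), and without WT+ATMi replicate 2 or 3 or Wip1SH+ATMi replicate 1 or 3 the call against WT+ATMi was lost (0.0694 to 0.0953). With equal medians over all probes these 2 calls were lost as well (-0.14, adjusted p = 0.474 and -0.32, adjusted p = 0.104). Between Wip1SH+ATMi and WT the difference was 0.07 ± 0.08, with an interval of -0.12 to 0.25, while equal medians over all probes gave 0.48 (adjusted p = 0.00296).

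The test of whether the inhibitor's effect differed between hairpin and WT cells called RELB alone of the 9 members, where 3.11% of all genes were called, 1.9% with a positive and 1.21% with a negative difference. The inhibitor's effect on RELB in Wip1SH cells minus its effect in WT cells was -0.65 ± 0.12 (adjusted p = 0.0158). The call was kept in all 23 alternative settings in which it was computed, with values of -0.94 to -0.45 and adjusted p-values of 0.00826 to 0.047. For the other 8 members the same difference did not pass, with adjusted p-values of 0.106 for CXCL8 (-0.34 ± 0.11) to 0.941 for NFKB1 (0.02 ± 0.11).

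NFKBIA encodes IκBα, the inhibitor that holds RELA dimers in the cytoplasm and is itself an NF-kB target, and its upstream window is shown above. Its values were 11.11, 11.08 and 10.95 in Wip1SH+ATMi, 10.62, 10.65 and 10.43 in Wip1SH, 11.41, 11.35 and 11.42 in WT+ATMi, and 10.63, 10.73 and 10.70 in WT. All 6 inhibitor arrays lay above all 6 arrays without it, and WT+ATMi lay above Wip1SH+ATMi without overlap. NFKBIA was 1.63-fold higher in WT+ATMi cells than in WT cells (0.70 ± 0.08, adjusted p = 0.000206) and 1.40-fold higher in Wip1SH+ATMi cells than in Wip1SH cells (0.48 ± 0.08, adjusted p = 0.00175). Under the inhibitor it was 1.27-fold lower in the hairpin cells (Wip1SH+ATMi against WT+ATMi, -0.34 ± 0.08, adjusted p = 0.0106). Without the inhibitor the hairpin gave no call (-0.12 ± 0.08, adjusted p = 0.26), and the difference between these 2 hairpin effects did not pass (-0.22 ± 0.11, adjusted p = 0.332). No single array decided these calls. Each was lost once the detected probes of each array entered the fit, where the log2 fold changes were 0.68, 0.47 and -0.35 and the adjusted p-values 0.139, 0.124 and 0.0619, and the last was also lost with equal medians over all probes (adjusted p = 0.0778).

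TNFAIP3 encodes A20, a ubiquitin-editing enzyme that ends signalling from TNF and Toll-like receptors. The gene was close to background: it was detected on all 3 Wip1SH+ATMi arrays, all 3 Wip1SH arrays, 0 of 3 WT+ATMi arrays and 1 of 3 WT arrays. Its values were 5.62, 5.43 and 5.48 in Wip1SH+ATMi, 6.26, 5.87 and 5.91 in Wip1SH, 5.39, 5.49 and 5.30 in WT+ATMi, and 5.75, 5.34 and 5.20 in WT. Wip1SH stood above the other 3 groups, which overlapped one another. TNFAIP3 was higher in Wip1SH cells than in WT cells (0.58 ± 0.14, adjusted p = 0.0096), a fitted difference that leans on 2 WT arrays without detection, and 1.41-fold lower in Wip1SH+ATMi cells than in Wip1SH cells (-0.50 ± 0.14, adjusted p = 0.0255). The second call was lost without Wip1SH replicate 1 or Wip1SH+ATMi replicate 2 or 3 (adjusted p = 0.0677 to 0.0974). The first was lost when arrays were scaled to equal medians of the tested probes (0.31, adjusted p = 0.105), where WT+ATMi against WT passed instead (-0.48, adjusted p = 0.0242), and the interaction did not pass (-0.46 ± 0.20, adjusted p = 0.24).

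**Figure D3:**
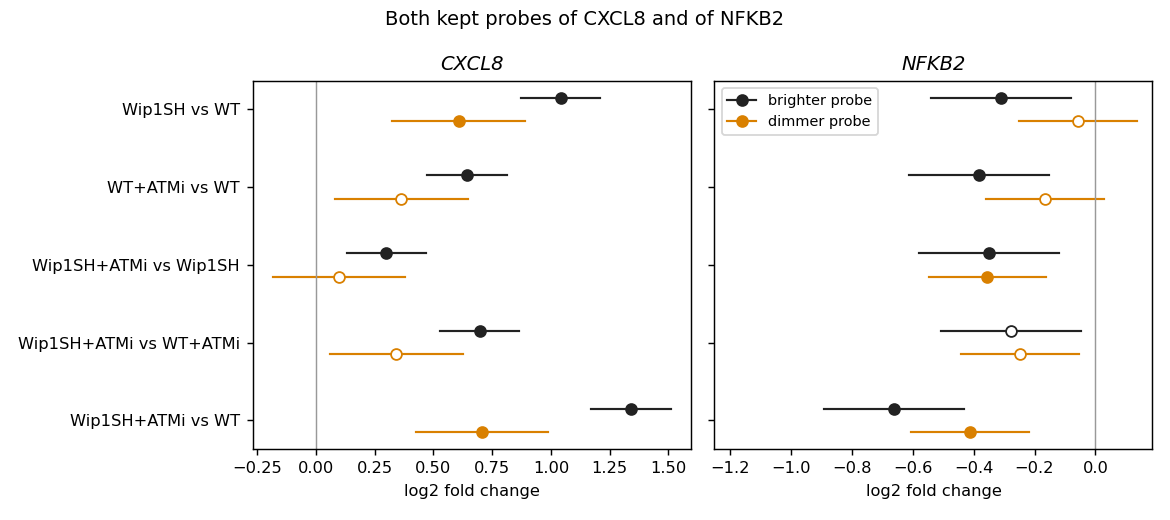
Fitted log2 fold changes (points) with 95% confidence intervals (lines) for the 2 kept probes of CXCL8 and of NFKB2 in 5 comparisons, filled where the limma adjusted p was under 0.05. Both CXCL8 probes lie right of 0 throughout, the dimmer one at smaller values.

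CXCL8 encodes interleukin-8, the chemokine that draws neutrophils. The brighter probe gave 8.72, 8.68 and 8.62 in Wip1SH+ATMi, 8.26, 8.37 and 8.50 in Wip1SH, 8.0, 7.96 and 7.97 in WT+ATMi, and 7.34, 7.32 and 7.33 in WT. The 4 groups did not overlap and ran from Wip1SH+ATMi at the top through Wip1SH and WT+ATMi to WT, an order that the raw signal shared, with means of 544, 407, 364 and 204. CXCL8 was 2.06-fold higher in Wip1SH cells than in WT cells (1.04 ± 0.07, adjusted p = 7.07e-06) and 1.56-fold higher in WT+ATMi cells than in WT cells (0.64 ± 0.07, adjusted p = 0.000242). With both factors it was 2.53-fold higher than in WT (1.34 ± 0.07, adjusted p = 4.49e-07). Depletion under the inhibitor gave 1.62-fold (Wip1SH+ATMi against WT+ATMi, 0.70 ± 0.07, adjusted p = 0.000103). The inhibitor in hairpin cells gave 1.23-fold (Wip1SH+ATMi against Wip1SH, 0.30 ± 0.07, adjusted p = 0.014), a call lost without Wip1SH replicate 1 (0.24, adjusted p = 0.0571), with the mean of both probes (0.0631) and with a fit of these groups alone (0.0539). Calls of the 3 comparisons that include depletion were kept in all 24 alternatives, with log2 fold changes of 0.77 to 1.31 for Wip1SH against WT, 0.52 to 0.74 for Wip1SH+ATMi against WT+ATMi and 1.01 to 1.77 for Wip1SH+ATMi against WT.

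The dimmer CXCL8 probe gave 7.70, 7.74 and 7.81 in Wip1SH+ATMi, 7.93, 7.58 and 7.44 in Wip1SH, 7.40, 7.46 and 7.36 in WT+ATMi, and 6.81, 7.19 and 7.12 in WT. Its group means kept the same order, but here the 2 hairpin groups overlapped. It passed in Wip1SH against WT (0.61 ± 0.13, adjusted p = 0.00527) and in Wip1SH+ATMi against WT (0.71 ± 0.13, adjusted p = 0.00134). It did not pass in WT+ATMi against WT (0.36 ± 0.13, adjusted p = 0.0617), in Wip1SH+ATMi against WT+ATMi (0.34 ± 0.13, adjusted p = 0.0868) or in Wip1SH+ATMi against Wip1SH (0.10 ± 0.13, adjusted p = 0.646).

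IL32 encodes a cytokine that induces TNF and CXCL8 in myeloid cells, and it showed the largest change of the 9 members with depletion. It was detected on no array of the hairpin cells and on all 6 arrays of the cells without it. Its values were 5.34, 5.42 and 5.02 in Wip1SH+ATMi, 5.17, 5.12 and 5.11 in Wip1SH, 6.85, 6.95 and 6.89 in WT+ATMi, and 7.05, 7.05 and 7.11 in WT. The 2 sets of 6 arrays were separated by more than 1 log2 unit, and the hairpin groups, both below background, have only a bound. Bounds set the group with signal against the higher of the dimmest detected probe and the measured value on each array of the group without. IL32 was at least 2.89-fold lower in Wip1SH cells than in WT cells (adjusted p = 3.2e-07), at least 2.75-fold lower in Wip1SH+ATMi cells than in WT+ATMi cells (8.31e-07) and at least 3.10-fold lower in Wip1SH+ATMi cells than in WT cells (3.02e-07). These 3 calls were kept in all 24 alternatives, but their size was not. The log2 fold change was -1.97 to -0.98 for Wip1SH against WT and -1.77 to -0.81 for Wip1SH+ATMi against WT+ATMi. For Wip1SH+ATMi against WT it was -1.97 to -0.92. The bounds above therefore hold only for the main processing. The inhibitor alone gave no call in WT (WT+ATMi against WT, -0.17 ± 0.10, adjusted p = 0.203), although the groups did not overlap, and between the hairpin groups no fold can be given. That comparison passed without Wip1SH+ATMi replicate 3 (0.25, adjusted p = 0.0453), both groups being below background. A second IL32 probe was dim and was not kept.

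LIF, a cytokine of the IL-6 family that signals through LIFR and gp130 to STAT3, fell with each factor and fell furthest with both. Its values were 7.30, 7.13 and 7.06 in Wip1SH+ATMi, 7.65, 7.61 and 7.42 in Wip1SH, 7.35, 7.79 and 7.63 in WT+ATMi, and 8.15, 8.31 and 8.18 in WT. WT lay above every other array, the single-factor groups overlapped each other, and Wip1SH+ATMi lay below both. The raw signal kept WT highest and Wip1SH+ATMi lowest, with means of 242 in Wip1SH+ATMi, 266 in Wip1SH, 295 in WT+ATMi and 304 in WT. LIF was 1.57-fold lower in Wip1SH cells than in WT cells (-0.65 ± 0.11, adjusted p = 0.00166) and 1.54-fold lower in WT+ATMi cells than in WT cells (-0.62 ± 0.11, adjusted p = 0.00289). With both factors it was 2.07-fold lower than in WT (-1.05 ± 0.11, adjusted p = 4.44e-05). Adding the inhibitor to hairpin cells gave -0.40 ± 0.11 (adjusted p = 0.0266), lost without Wip1SH replicate 1 or 2 or Wip1SH+ATMi replicate 2 or 3 (0.0718 to 0.0867). Depletion under the inhibitor gave -0.43 ± 0.11 (adjusted p = 0.0206), lost without replicate 2 or 3 of either WT+ATMi or Wip1SH+ATMi (0.0561 to 0.0805). With equal medians over all probes the calls of each factor alone were lost too (-0.35, adjusted p = 0.0539 for Wip1SH and -0.16, adjusted p = 0.326 for WT+ATMi), as was that of the inhibitor in hairpin cells (-0.26, adjusted p = 0.183).

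**Figure D4:**
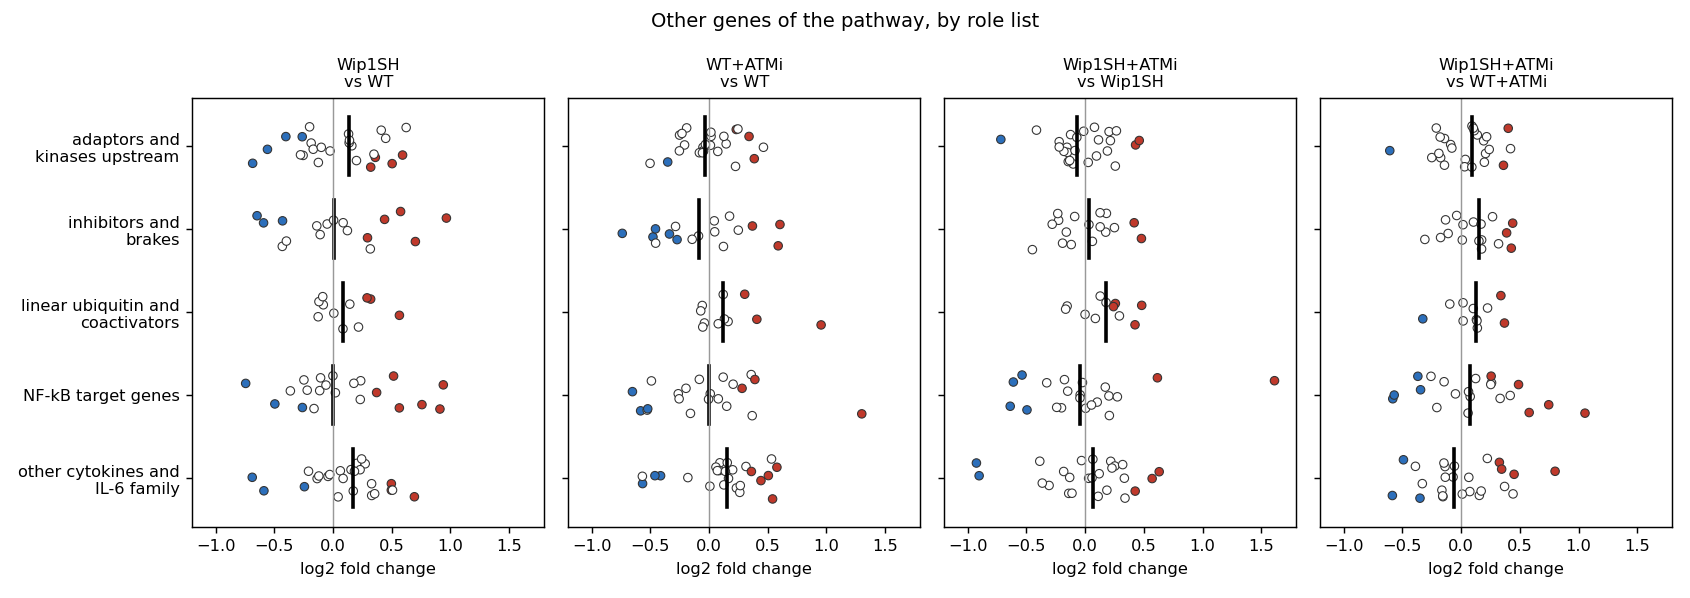
Fitted log2 fold changes of the 99 other tested pathway genes (points), by role list, in the 4 comparisons that change 1 factor. Red points passed as higher and blue points as lower in the first-named group at a limma adjusted p under 0.05, open points did not pass, and black bars are list medians, which lie between -0.09 and 0.18.

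Around the members, 99 further genes of the pathway in 5 lists were tested, the lists also chosen with earlier results of these data known. In Wip1SH against WT 34.3% of them were called (21 higher, 13 lower), in WT+ATMi against WT 29.3% (17 and 12), in Wip1SH+ATMi against Wip1SH 20.2% (13 and 7), and in Wip1SH+ATMi against WT+ATMi 25.3% (16 and 9). Equal medians over all probes gave 42 higher and 2 lower, 60 and 2, 16 and 4, and 7 and 6 in the same comparisons, and equal medians over the tested probes 18 and 17, 13 and 19, 14 and 9, and 16 and 9. The shares without these settings stand beside the 32.2%, 25.5%, 23.3% and 21.2% of all genes given above. The list medians of these 99 were 0.09, 0.06, 0.03 and 0.08 beside 0.01, 0.03, 0.02 and 0.01 over all genes. Other NF-kB targets, including CXCL2, CCL20, IL6, TNF, ICAM1 and CCL2, were not tested because no named probe of them was kept. With the covariate for detected probes, every inhibitor call of the genes named below was lost except that of STAT3 in hairpin cells, as were the depletion calls of NFKBIZ and CYLD. With equal medians over all probes, the Wip1SH against WT calls of MYD88 and TRAFD1 and the WT+ATMi against WT call of LCN2 were lost.

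Of 25 receptors, adaptors and kinases of the upstream part, the IKK subunits among them, 4 were higher and 4 lower in Wip1SH cells than in WT cells. That was 32% of the list, beside 32.2% of all genes. MYD88, the adaptor of Toll-like and interleukin-1 receptors, averaged 6.97 in Wip1SH+ATMi, 7.08 in Wip1SH, 7.58 in WT+ATMi and 7.63 in WT, and was lower with depletion both without the inhibitor (-0.56 ± 0.10, adjusted p = 0.00147) and with it (-0.61 ± 0.10, adjusted p = 0.00124). TNFRSF10B, a death receptor that p53 induces, averaged 11.68 in Wip1SH+ATMi, 11.77 in Wip1SH, 11.32 in WT+ATMi and 11.18 in WT and was higher in Wip1SH cells than in WT cells (0.59 ± 0.09, adjusted p = 0.000465), as were its 2 other kept probes (0.55 and 0.69). LTBR, a receptor that feeds the non-canonical branch, was higher with the inhibitor in WT cells (0.34 ± 0.08, adjusted p = 0.00726) and in hairpin cells (0.46 ± 0.08, adjusted p = 0.0016). IKBKG, the IKKγ subunit through which ATM reaches the pathway, was higher in Wip1SH+ATMi cells than in Wip1SH cells (0.43 ± 0.10, adjusted p = 0.0108).

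Of 17 inhibitors and brakes, 5 were higher and 3 lower in Wip1SH cells than in WT cells, and 3 were higher and 5 lower in WT+ATMi cells than in WT cells. Each count was 47.1% of the list, beside 32.2% and 25.5% of all genes. TRAFD1, a negative regulator of Toll-like receptor signalling, averaged 7.53 in Wip1SH+ATMi, 7.64 in Wip1SH, 7.83 in WT+ATMi and 8.29 in WT, and was lower in Wip1SH cells than in WT cells (-0.65 ± 0.11, adjusted p = 0.00123). NFKBIZ, an atypical nuclear IκB, was higher on its brighter probe in Wip1SH cells than in WT cells (0.58 ± 0.09, adjusted p = 0.000876), while its other kept probe was at 0.05. CYLD, a deubiquitinase that restrains IKK, was detected on 3 Wip1SH arrays and on 0 WT arrays and was at least 1.31-fold higher in Wip1SH (adjusted p = 0.00717). Among 11 genes of linear ubiquitin chains and of cofactors, deacetylases included, 3 were higher and 0 lower in each of Wip1SH against WT and WT+ATMi against WT. This was 27.3% of the list both times, beside the same 32.2% and 25.5% of all genes. RNF31, the catalytic subunit of the linear ubiquitin ligase, was higher in Wip1SH+ATMi cells than in Wip1SH cells (0.48 ± 0.11, adjusted p = 0.00762).

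Of 21 other NF-kB target genes, 6 were higher and 3 lower in Wip1SH cells than in WT cells, and 3 were higher and 3 lower in WT+ATMi cells than in WT cells. The called shares were 42.9% and 28.6%, beside 32.2% and 25.5% of all genes. IRF1, an interferon regulatory factor, averaged 8.31 in Wip1SH+ATMi, 6.69 in Wip1SH, 8.05 in WT+ATMi and 6.75 in WT. It rose with the inhibitor by 1.30 ± 0.18 in WT cells (adjusted p = 0.000616) and by 1.61 ± 0.18 in hairpin cells (adjusted p = 0.00021), on the same side as NFKBIA. CEBPB, a transcription factor that acts with NF-kB at the CXCL8 promoter, averaged 12.63 in Wip1SH+ATMi, 12.52 in Wip1SH, 12.05 in WT+ATMi and 11.77 in WT, and was higher with depletion without the inhibitor (0.76 ± 0.09, adjusted p = 0.000184) and with it (0.58 ± 0.09, adjusted p = 0.00136). PTGS2, the inducible cyclooxygenase, was detected on no WT array and was at least 1.43-fold higher in Wip1SH cells than in WT cells (adjusted p = 0.00171). Its other kept probe did not pass (0.19, adjusted p = 0.436). TRIB1, a pseudokinase, moved the other way with depletion (-0.74 ± 0.07, adjusted p = 5.05e-05), and LCN2, lipocalin 2, was lower with the inhibitor in WT cells (-0.52 ± 0.08, adjusted p = 0.000821) and in hairpin cells (-0.64 ± 0.08, adjusted p = 0.000294).

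Of 25 other cytokine and IL-6 family genes, 3 were higher and 3 lower in Wip1SH cells than in WT cells, and 5 were higher and 3 lower in WT+ATMi cells than in WT cells. The called shares were 24% and 32%, beside 32.2% and 25.5% of all genes. STAT3, the transcription factor downstream of LIF, averaged 9.25 in Wip1SH+ATMi, 10.18 in Wip1SH, 9.84 in WT+ATMi and 10.30 in WT. It was lower with the inhibitor in hairpin cells (-0.93 ± 0.09, adjusted p = 7.69e-05) and in WT cells (-0.46 ± 0.09, adjusted p = 0.00318, but 0.0053 with equal medians over all probes), and its 2 other kept probes passed in the same direction in both comparisons. LIFR, the LIF receptor, was detected on 2 of 3 Wip1SH+ATMi arrays, no Wip1SH array, 3 WT+ATMi arrays and no WT array, and was at least 1.18-fold higher in WT+ATMi cells than in WT cells (adjusted p = 0.0109). Without the WT+ATMi arrays LIFR would not have met the detection filter, so this call is not independent of that filter. IL13RA1, a receptor chain for interleukin-13, averaged 9.49 in Wip1SH+ATMi, 9.06 in Wip1SH, 9.15 in WT+ATMi and 8.57 in WT, and was higher in Wip1SH cells than in WT cells (0.50 ± 0.08, adjusted p = 0.000683) and in WT+ATMi cells than in WT cells (0.58 ± 0.08, adjusted p = 0.000457).

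The genes whose profiles over the 12 arrays lay closest to those of the secreted factors were found by the root mean square difference of log2 values after each gene was centred on its own mean. For IL32, whose own values spread by 0.90 on this measure, the closest of 11784 other genes was PPM1D itself (0.203), followed by VSNL1 (0.214), CACYBP (0.218), CYP26B1 (0.238) and ADAM19 (0.238). IL32 was detected on no hairpin array, so background limits the size of its drop. Its log2 fold change for Wip1SH against WT was -1.97 to -0.98 over the alternatives. The closeness to PPM1D therefore holds for the main processing and does not measure a shared size of change. For CXCL8, with a spread of 0.505, they were H2AC6 (0.109), H4C15 (0.121), TRIB3 (0.122), SLFN5 (0.128) and AGPAT4 (0.138). H2AC6 averaged 10.72 in Wip1SH+ATMi, 10.49 in Wip1SH, 10.15 in WT+ATMi and 9.60 in WT. For LIF, with a spread of 0.394, they were CLUH (0.0786), LGALS1 (0.119), PANK4 (0.119), THBS1 (0.122) and RPAP1 (0.124). CLUH averaged 8.35 in Wip1SH+ATMi, 8.77 in Wip1SH, 8.75 in WT+ATMi and 9.39 in WT. These are descriptions over 12 arrays that share the 4 groups, with no test.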

How the data were processed

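Per the file headers, each array has for every probe a signal, which is a linear intensity, and a detection p-value, and the deposited signals carry no normalization between arrays. The authors also deposited log2 values, and no source used here names how these were normalized. The largest difference was 5e-06 from log2 values computed here by neqc of limma 3.58.1 in R 4.3.3 (normal-exponential background correction with control statistics inferred from the detection p-values, offset 16, quantile normalization). Of 47323 probes, 30113 carried 1 gene symbol, 8 several and 17202 none in the table used. For the 3150 genes with more than 1 kept probe, the brightest on average stood for the gene, and all 15772 kept probes were also fitted singly. A model with 1 mean per group over the 12 arrays (lmFit and eBayes) gave 5 differences and the interaction, with two-sided p-values adjusted by the Benjamini-Hochberg method across the 11785 genes and calls at 0.05. Errors after ± are standard errors, with a median of 0.11 for a difference of 2 groups, and the 3 arrays per group limit the precision. If replicates share a culture, p-values measure technical spread.

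The members and lists were chosen with earlier results of these data known. Named genes are all members, PPM1D, the 5 genes closest in profile to each of IL32, CXCL8 and LIF, and in each list and comparison up to 3 higher and 3 lower genes of the largest size past the threshold, of which some are described. Alternatives were an offset of 50, no background correction, the deposited values, equal array medians over all or over the tested probes, no or a stricter detection filter (under 0.01 throughout a group), averaging the kept probes per gene, weights per array, a block for replicate number, a covariate for detected probes, only the groups compared, and each array left out. The procedure was tested on simulated data. No build is named for the probes, so they carry no coordinates. Promoter windows were taken from RefSeq on GRCh38.p14.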

Additional observations from a re-analysis of the deposited data

Results flagged for a closer look

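RELB stood out because the inhibitor's effect differed between the cell backgrounds by a test of that difference. In log2 units the inhibitor's effect in Wip1SH cells minus its effect in WT cells was -0.65 ± 0.12 (SE, 3 arrays per group, limma adjusted p = 0.0158). Adding the inhibitor gave -0.29 in Wip1SH cells and 0.36 in WT cells. RELB was below every Wip1SH array on 3 of 3 Wip1SH+ATMi arrays and above every WT array on 3 of 3 WT+ATMi arrays.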

How the results depend on the processing

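Most recomputed values kept their side of the threshold. Over the 9 members, 1178 of 1281 did, 94 lost a call, 5 gained one and 4 turned direction. Over the other named genes these numbers were 2477, 339, 0 and 6 of 2822. Member results without a call are among the 1178, and count as kept in either direction while they stayed without one. The deposited values were 1 of the alternatives and equal those computed here within 5e-06, so their agreement was fixed in advance. Equal array medians over all probes shifted the median log2 fold change of all genes by 0.23 in Wip1SH against WT, 0.39 in WT+ATMi against WT, 0.13 in Wip1SH+ATMi against Wip1SH, -0.02 in Wip1SH+ATMi against WT+ATMi, 0.36 in Wip1SH+ATMi against WT and -0.26 in the interaction. That setting left 4 members called in Wip1SH against WT, 3 in Wip1SH+ATMi against Wip1SH and 3 in Wip1SH+ATMi against WT+ATMi. It called 7206 genes in WT+ATMi against WT, where 3002 were called otherwise, and 1289 in place of 2495 in Wip1SH+ATMi against WT+ATMi. Of the genes it called, 3826 were higher and 342 lower in Wip1SH against WT (1976 and 1818 otherwise), 7041 and 165 in WT+ATMi against WT (1820 and 1182), 2096 and 285 in Wip1SH+ATMi against Wip1SH (1687 and 1063), 506 and 783 in Wip1SH+ATMi against WT+ATMi (1232 and 1263), 6361 and 386 in Wip1SH+ATMi against WT (2774 and 2017), and 11 and 256 in the interaction (224 and 143). Equal medians over the tested probes gave 1457 and 1923 in WT+ATMi against WT, 2419 and 2708 in Wip1SH+ATMi against WT, and 296 and 104 in the interaction. Directions that turned with equal medians over all probes were, in WT+ATMi against WT, NFKB1 (0.44), NFKB2 (0.11), RELA (0.046), BCL10 (0.13), TRAFD1 (0.025), STAT3 (0.0053) and PDGFA (0.025), and, in Wip1SH+ATMi against WT, NFKB1 (0.12) and TRADD (0.084), while averaging the kept probes turned CREBBP in Wip1SH+ATMi against WT+ATMi (-0.018). With detected probes as a covariate, 886 genes and 2 members were called in Wip1SH against WT, 33 and 0 in WT+ATMi against WT, 159 and 0 in Wip1SH+ATMi against Wip1SH, 1183 and 2 in Wip1SH+ATMi against WT+ATMi, and 40 and 2 in Wip1SH+ATMi against WT. In the interaction, 367 genes were called, 231 with this covariate and 574 without background correction. Leaving out 1 array gave 2 to 7 members in Wip1SH+ATMi against Wip1SH, with 2 or 3 left without replicate 1 or 2 of Wip1SH or replicate 2 or 3 of Wip1SH+ATMi. It gave 3 to 6 members in Wip1SH+ATMi against WT+ATMi, with 3 left without replicate 3 of either group. It gave 164 to 321 genes in the interaction, with 241 or fewer left without WT replicate 3, WT+ATMi replicate 1 or 3, Wip1SH replicate 1 or 3, or any Wip1SH+ATMi replicate. The cause of these shifts was not tested. Same-numbered replicates share only a number: over 3 numbers in each of 5 comparisons, correlations of their deviations lay between -0.08 and 0.14 and were over 0.1 in 3 of 15. In Wip1SH against WT and in Wip1SH+ATMi against WT+ATMi all 6 were positive and each array correlated best with its own number, a hint from the data and not from the design. With the replicate block, 3709, 2910, 2615, 2368 and 4734 genes were called in Wip1SH against WT, WT+ATMi against WT, Wip1SH+ATMi against Wip1SH, Wip1SH+ATMi against WT+ATMi and Wip1SH+ATMi against WT, and 295 in the interaction. Among the 54 member results the block changed 1, NFKB2 in Wip1SH against WT (adjusted p = 0.0509). TNFAIP3 and IL32 lie near background, where signal limits what can be told.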
